A study of Mus musculus with 18 samples.

Results

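Chemokine ligand genes were taken as the autosomal protein-coding genes of GENCODE vM21 (mouse build mm10) with a symbol of the Ccl, Cxcl, Cx3cl1, Xcl1, Pf4 or Ppbp form, which gave 39 members of 20807 genes. Their chromatin was read in bone marrow-derived macrophages (BMDM) of WT, mdx and mdxTLR4-/- mice from ChIP-seq of H3K27me3 and H3K27ac. The mdx mouse lacks dystrophin and is a model of Duchenne muscular dystrophy, and mdxTLR4-/- mice also lack the receptor TLR4. The strain labels read C57BL6 for WT, Dmdmdx-4Cv for mdx and Bl6/Bl10 for mdxTLR4-/-. All mice were male and all BMDM were unstimulated, after 7 days of culture in L929 supernatant, a source of M-CSF. Each H3K27me3 genotype had 2 ChIP and 2 input libraries, while H3K27ac had 5 ChIP libraries (WT and mdx 2 each, mdxTLR4-/- 1) and 1 input of no stated genotype. The labelled ages climb in steps of 1 week along all libraries of the series, inputs included, from 6 to 23 weeks. Whether these were the true ages of the mice could not be checked. As labelled, genotype, strain and age cannot be told apart. In the authors' account, the WT, mdx and TLR4-/- mice shared a C57BL6 background. The authors merged replicates before calling peaks, which left 1 peak list per mark and genotype, no spread between mice and no test of any difference given here.

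Chemokines are small secreted proteins that guide leukocytes through G protein-coupled receptors. CC chemokines chiefly attract monocytes, eosinophils and lymphocytes, and many CXC chemokines attract neutrophils or lymphocytes. Most of the genes lie in tandem clusters that grew by duplication, and macrophages switch the inflammatory ones on quickly after stimulation. H3K27me3 is the mark of Polycomb repression and often forms broad domains over silent genes, whereas H3K27ac marks active promoters and enhancers.

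The 39 members lay on 8 chromosomes, 30 of them in 7 clusters (gene bodies at most 500 kb apart) and 9 as single genes. The 6 lists held between 28143 and 41780 H3K27me3 peaks and between 12076 and 15665 H3K27ac peaks. The H3K27ac lists were thin, with 168487 to 274020 reads in peaks against 7358418 to 10199918 for H3K27me3, and a median of 8 to 10 reads per peak. A gene without a peak is therefore a gene at which none was called, not one shown to lack the mark, and a mark in fewer cells cannot be told apart from a weaker mark in all of them. Macrophage genes carried the active mark. A set of 9 macrophage marker genes, which included Adgre1, Cd68, Spi1 and Lyz2, had no H3K27me3 peak over the gene window in any list, and the WT, mdx and mdxTLR4-/- lists held an H3K27ac peak within 5 kb of the start at 9, 8 and 9 of them. The 1 without a peak in mdx was Csf1r, the M-CSF receptor, where a peak of 165 reads began 5003 bases past the start and so fell just outside the limit. None of 6 neutrophil or 5 fibroblast markers had an H3K27ac peak in any list. Peaks stood at 1 of 7 T cell markers in each list, at 2, 1 and 1 of 5 B cell markers, at 1 of 4 endothelial markers (Pecam1, with 46, 47 and 23 reads) and at 1 of 4 dendritic cell markers (Clec9a, with 14, 11 and 18 reads). A peak list cannot show the loss of dystrophin or TLR4. Tlr4 itself had an H3K27ac peak within 5 kb of its start in every list, with 44, 29 and 28 reads in the same order.

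H3K27me3 coverage was the share of bases under peaks in a window from 5 kb upstream of the gene to 1 kb past its end. In each genotype 9 of the 39 members (23.1%) were covered over at least 50% of the window, and the share among all genes was 17.5% for WT, 17.1% for mdx and 15.6% for mdxTLR4-/-. The 9 were not the same in every list. Ccl26, Ccl24, Cxcl12, Ccl22, Ccl11, Ccl1 and Cxcl14 passed in all 3 genotypes, Cx3cl1 in WT and mdx, Ccl8 in mdx and mdxTLR4-/-, Ccl2 in WT alone and Ccl21a in mdxTLR4-/- alone. The mdx and mdxTLR4-/- lists were also cut to their densest peaks, to equal the number in the WT list, which lost none. This cut can only lower coverage in mdx and mdxTLR4-/-. The counts were then 9, 8 and 6, and Ccl8 no longer passed in mdx, nor Ccl22, Ccl8 and Ccl21a in mdxTLR4-/-. At the other end, 18 members (46.2%) had no H3K27me3 peak in any list, against 53.7% of all genes. Averaged over members, coverage came to 22.8%, 24.4% and 23.9% for WT, mdx and mdxTLR4-/-, beside 18.4%, 18.2% and 16.8% over all genes, and each of these medians was 0.

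**Figure D1:**
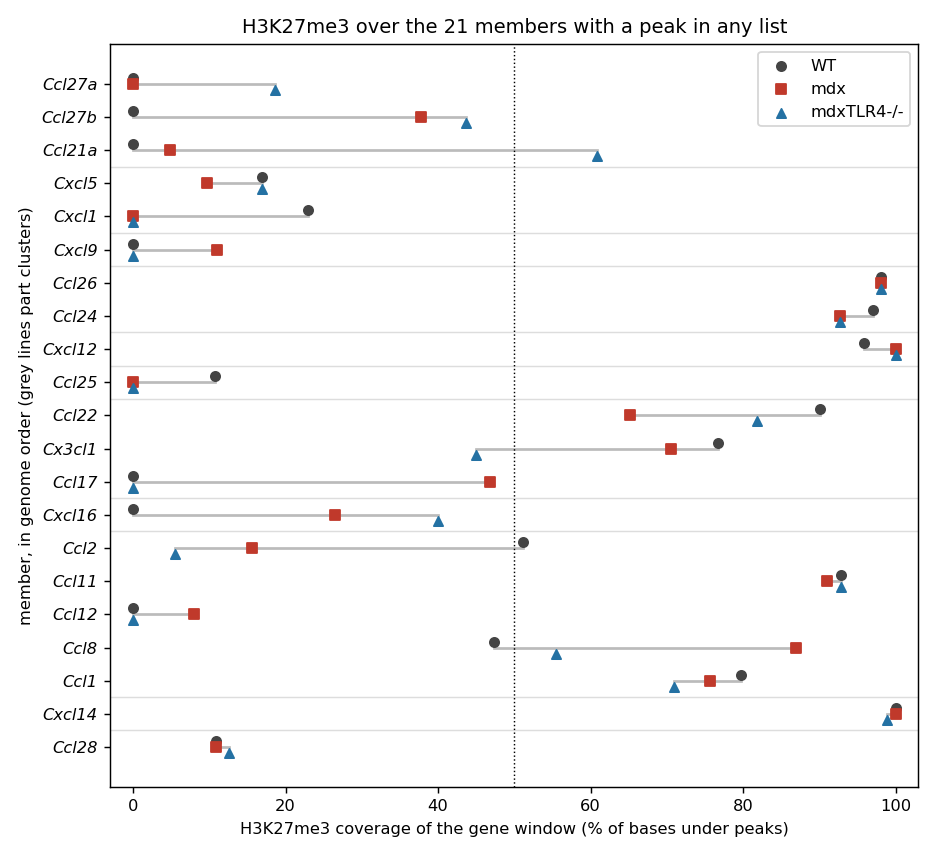
H3K27me3 coverage (x axis, percent of the bases of the gene window under peaks) of the 21 members with a peak in any list (y axis, in genome order), with 1 point per genotype from its single merged list and a grey bar from the lowest to the highest. The dotted line marks 50%. Ccl26, Ccl24, Cxcl12, Ccl11 and Cxcl14 sit above 90% in all 3 genotypes, and the longest bars belong to Ccl21a, Ccl17 and Ccl2.

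A difference of at least 10 percentage points served as the size rule between lists. From WT to mdx, coverage was lower by that much at 4 members (Cxcl1, Ccl25, Ccl22 and Ccl2; 10.3%, beside 5.79% of all genes) and higher at 5 (Ccl27b, Cxcl9, Ccl17, Cxcl16 and Ccl8; 12.8%, beside 5.04%). From mdx to mdxTLR4-/-, it was lower at 5 (Cxcl9, Cx3cl1, Ccl17, Ccl2 and Ccl8; 12.8%, beside 8.03%) and higher at 4 (Ccl27a, Ccl21a, Ccl22 and Cxcl16; 10.3%, beside 2.6%). From WT to mdxTLR4-/-, 4 members were lower (Cxcl1, Ccl25, Cx3cl1 and Ccl2; 10.3%, beside 8.82%) and 4 higher (Ccl27a, Ccl27b, Ccl21a and Cxcl16; 10.3%, beside 2.67%). These counts depended on which peaks were kept. The cut to equal numbers of peaks left WT whole, so it can only move comparisons against WT toward lower coverage. With it, 7 members were lower and 1 (Ccl27b) higher from WT to mdx, and 8 lower and 4 higher from WT to mdxTLR4-/-. The 3 comparisons share lists, so their counts are not independent. Of the 4 higher members in the last comparison, 3 belong to the repeated Ccl27 and Ccl21 genes described further on, and Cxcl16 alone remained without them.

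H3K27ac peaks within 5 kb of the start were found at 8 members (20.5%) in WT, where 32.9% of all genes had one. The mdx list had one at 8 members (20.5%, against 28.3%) and the mdxTLR4-/- list at 12 (30.8%, against 30.4%). Ppbp, Pf4, Cxcl10, Ccl12, Ccl9, Ccl3 and Ccl4 had one in every list, where Ppbp and Pf4 shared a single peak. From WT to mdx, 1 member (Ccl6) lost its peak, beside 8.28% of all genes, and 1 (Ccl25) gained one, beside 3.62%. From mdx to mdxTLR4-/-, 0 members lost a peak, beside 4.95%, and 4 (Cxcl3, Cxcl16, Ccl7 and Ccl6) gained one, beside 7.06%. From WT to mdxTLR4-/-, 0 lost one, beside 7.13%, and 4 (Cxcl3, Ccl25, Cxcl16 and Ccl7) gained one, beside 4.59%. The peaks of the 4 members that gained one from mdx to mdxTLR4-/- held 5 to 9 reads each, and 0 were gained when only peaks of at least 10 reads were kept. The remaining 27 members had none in any list, with a median distance to the nearest H3K27ac peak of 42.2 kb, 32.8 kb and 51.8 kb for WT, mdx and mdxTLR4-/-.

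No member combined coverage of at least 50% with an H3K27ac peak in the same genotype (0 of 39 in each), but the combination was rare among all genes too, at 0.831% for WT, 0.543% for mdx and 0.437% for mdxTLR4-/-. At a coverage of 20% in place of 50%, Cxcl16 in mdxTLR4-/- combined them. None of the H3K27ac peaks within 5 kb of a member's start was overlapped by an H3K27me3 peak of its own genotype. Over the whole windows there was 1 overlap, inside Cx3cl1 in WT, where an H3K27ac peak of 8 reads from 6792 to 8591 past the start shared 1000 bases with an H3K27me3 peak of 77 reads.

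**Figure D2:**
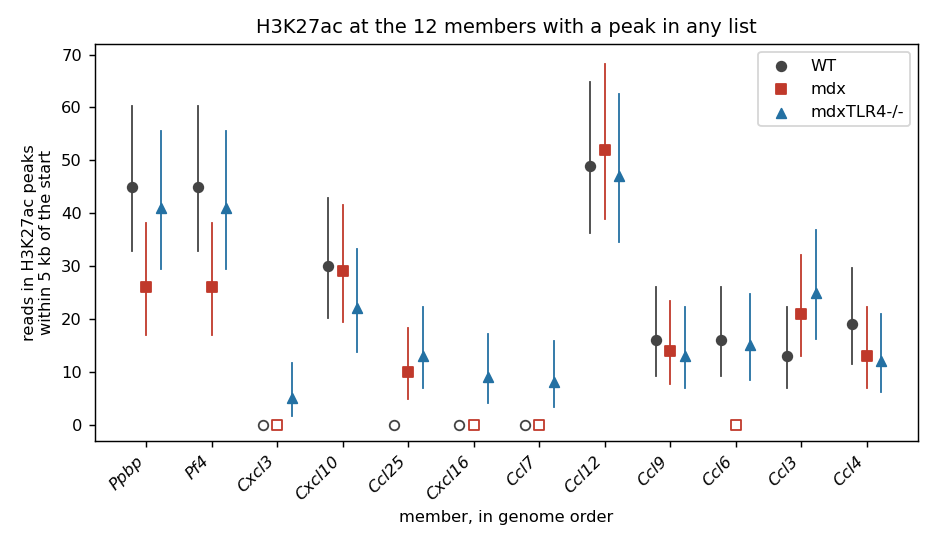
Reads in H3K27ac peaks within 5 kb of the start (y axis) at the 12 members with such a peak in any list (x axis, genome order), 1 point per genotype from its merged list. Vertical lines are exact 95% Poisson intervals, which cover counting error only, and open points at 0 are lists without a peak. Ccl12 is the highest in each genotype, at 49, 52 and 47 reads, and the peaks of Cxcl3, Cxcl16 and Ccl7 in mdxTLR4-/- hold 5 to 9.

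The promoters of the members at which a mark over the annotated start differed between lists were taken from RefSeq (GRCm38.p6), as the 250 bases before the start, 5′ to 3′ on the strand of the gene. RefSeq starts within 5 kb of the GENCODE start were matched for 27 of the 39 members, and of the 9 members with such a difference 7 are printed here. The others were Ccl4 and Ccl7. Capitals mark motif matches on either strand, which may overlap. The letters searched were TATAAA for the TATA box and TGANTCA for AP-1. Those for STAT were TTCNNNGAA and those for IRF factors GAAANNGAA. PU.1 was searched as GAGGAA and NF-kappaB by its consensus. The first 4 are shown for H3K27me3 over the start, which was called in WT alone at Cxcl1 (chr5:90890995-90891244, plus strand) and Ccl8 (chr11:82114935-82115184, plus strand), in WT and mdxTLR4-/- at Ccl22 (chr8:94745434-94745683, plus strand) and in mdxTLR4-/- alone at Ccl21a (chr4:42773992-42774241, minus strand).
Cxcl1: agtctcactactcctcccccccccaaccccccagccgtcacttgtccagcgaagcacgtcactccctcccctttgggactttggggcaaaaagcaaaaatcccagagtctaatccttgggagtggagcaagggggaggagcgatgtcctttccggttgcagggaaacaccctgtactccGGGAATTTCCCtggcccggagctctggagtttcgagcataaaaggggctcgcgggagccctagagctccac
Ccl8: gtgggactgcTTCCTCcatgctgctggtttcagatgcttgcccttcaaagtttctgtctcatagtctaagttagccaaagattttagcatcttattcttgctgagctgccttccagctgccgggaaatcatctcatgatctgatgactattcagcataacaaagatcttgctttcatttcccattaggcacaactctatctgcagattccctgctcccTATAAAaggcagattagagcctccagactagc
Ccl22: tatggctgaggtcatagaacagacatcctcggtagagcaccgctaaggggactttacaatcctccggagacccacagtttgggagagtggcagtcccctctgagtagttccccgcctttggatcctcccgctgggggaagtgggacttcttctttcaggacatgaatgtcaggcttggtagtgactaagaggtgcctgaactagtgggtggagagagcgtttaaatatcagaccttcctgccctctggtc
Ccl21a: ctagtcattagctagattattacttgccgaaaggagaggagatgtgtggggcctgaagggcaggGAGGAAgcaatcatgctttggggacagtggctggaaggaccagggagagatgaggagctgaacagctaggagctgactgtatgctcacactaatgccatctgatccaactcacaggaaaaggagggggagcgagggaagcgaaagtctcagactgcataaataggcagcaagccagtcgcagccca
The other 3 are shown for H3K27ac over the start, which was called in WT alone at Ccl6 (chr11:83593088-83593337, minus strand), in WT and mdx at Ccl9 (chr11:83578637-83578886, minus strand) and in mdx and mdxTLR4-/- at Ccl25 (chr8:4324960-4325209, plus strand).
Ccl6: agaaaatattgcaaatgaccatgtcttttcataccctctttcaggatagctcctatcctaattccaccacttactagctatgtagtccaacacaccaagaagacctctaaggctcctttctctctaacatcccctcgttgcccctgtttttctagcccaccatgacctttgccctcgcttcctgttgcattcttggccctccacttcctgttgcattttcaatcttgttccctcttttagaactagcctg
Ccl9: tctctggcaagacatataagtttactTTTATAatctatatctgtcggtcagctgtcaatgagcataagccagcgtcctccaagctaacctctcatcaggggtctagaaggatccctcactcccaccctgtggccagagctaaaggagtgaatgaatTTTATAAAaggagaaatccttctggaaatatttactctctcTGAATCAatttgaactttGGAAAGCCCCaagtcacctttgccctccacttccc
Ccl25: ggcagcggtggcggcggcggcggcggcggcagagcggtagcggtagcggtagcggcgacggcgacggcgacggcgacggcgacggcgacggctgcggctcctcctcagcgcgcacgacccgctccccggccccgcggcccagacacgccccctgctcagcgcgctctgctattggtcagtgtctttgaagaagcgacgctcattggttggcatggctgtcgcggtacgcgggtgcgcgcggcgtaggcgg

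Cxcl1 held 2 overlapping matches to the NF-kappaB consensus, from -71 to -61 relative to the start. Ccl8 held a TATAAA from -32 to -27, and Ccl9 an AP-1 match from -53 to -47 beside an NF-kappaB match from -35 to -26. No match was found in the Ccl6, Ccl22 and Ccl25 windows. Among the 27 matched members, the NF-kappaB consensus occurred in 22.2% (Ccl20, Cxcl3, Cxcl1, Cxcl2, Cxcl10 and Ccl9) beside 7.25% of 32851 mouse promoters of that length, the IRF motif in 18.5% beside 7.13% and TATAAA in 33.3% beside 12.4%. AP-1 occurred in 14.8% beside 6.75%, PU.1 in 33.3% beside 23.3% and STAT in 7.41% beside 7.02%. These matches describe letters and not bound sites.

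The Ccl25 sequence differed from the rest in base composition, with 45 CG dinucleotides where the other 6 printed promoters held 1 to 10. It was taken at the annotated start, which lies at the start of the gene Elavl1 and 24.4 kb from that of the Ccl25 principal transcript. Over the 27 matched members the median was 4 CG, beside 6 over all promoters. It was 10 for the 6 matched members with coverage of at least 50% in any genotype, 2 for the 13 matched members with no H3K27me3 peak in any list and 2 for the 9 matched members with an H3K27ac peak. These groups were read from few promoters and were not tested.

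The Ccl2 to Ccl1 cluster (chr11:82030571-82310690, mm10) spans 280 kb and holds the monocyte and eosinophil attractants Ccl2, Ccl7, Ccl11, Ccl12, Ccl8 and Ccl1. In WT 16 H3K27me3 peaks covered 61.1% of the span, in mdx 21 peaks 60.2% and in mdxTLR4-/- 21 peaks 49.9%. The domains left gaps at Ccl2, Ccl7 and Ccl12 and were dense over Ccl11, past Ccl8 and around Ccl1. Flanking genes also carried the mark, with Asic2 at 15.0%, 15.7% and 13.7% and Tmem132e at 58.8%, 80.1% and 58.8% in WT, mdx and mdxTLR4-/-.

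**Figure D3:**
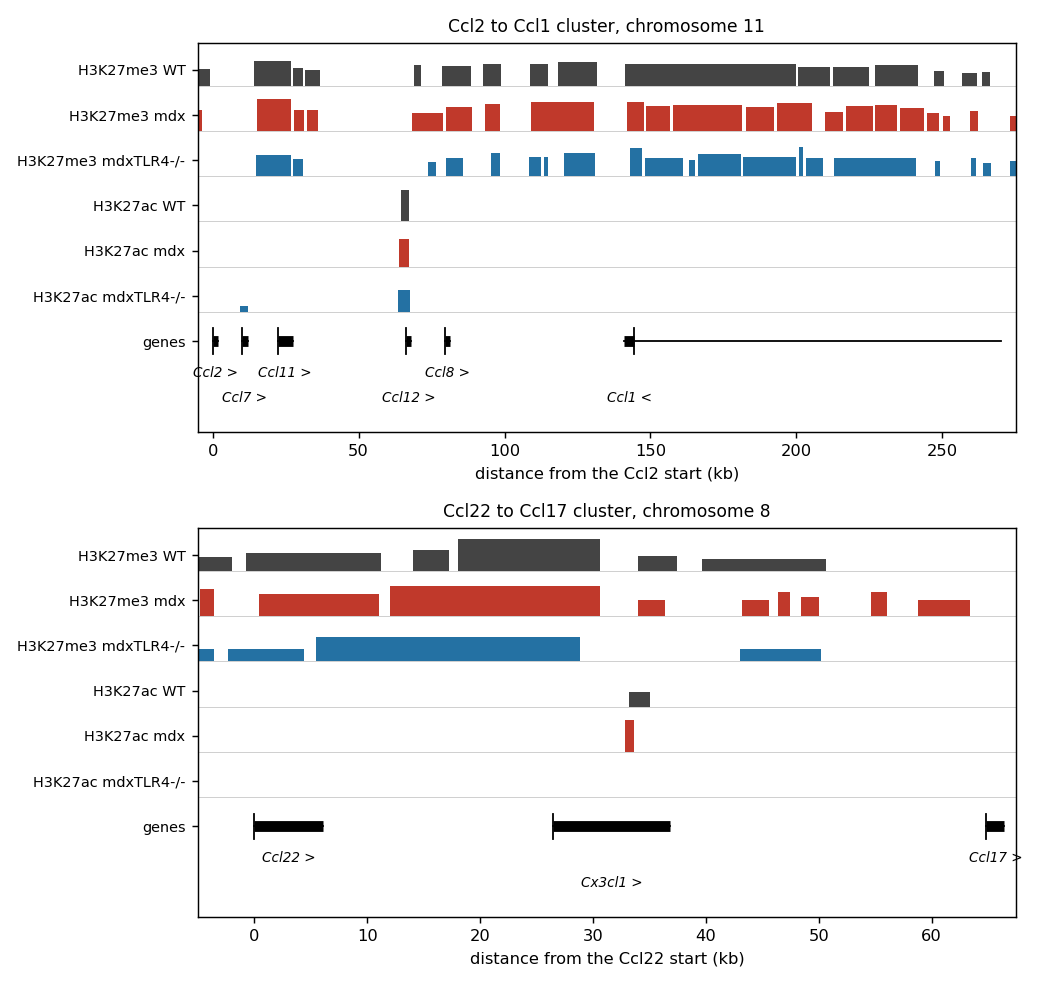
H3K27me3 and H3K27ac peaks over the Ccl2 to Ccl1 cluster (top, x axis in kb from the Ccl2 start) and the Ccl22 to Ccl17 cluster (bottom, x axis in kb from the Ccl22 start), 1 row per mark and genotype. Box width is peak length and box height is reads per kb, scaled within a panel to the densest peak of that mark, without scaling for depth. Thick bars are principal transcripts, thin lines the annotated gene, ticks the starts, and > or < the strand. The H3K27ac peak of Ccl12, present in each list, falls in a gap between H3K27me3 domains.

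Ccl2, a main ligand of the monocyte receptor CCR2, had 51.1% coverage in WT, 15.6% in mdx and 5.45% in mdxTLR4-/-, with differences of -35.5 points from WT to mdx and -10.1 points from mdx to mdxTLR4-/-. All of it lay upstream of the gene. In WT a single peak with 220 reads ended at -971 from the start, whereas the nearest peak ended at -3771 in mdx (67 reads) and at -4571 in mdxTLR4-/- (110 reads). No exon of Ccl2 was under a peak in any genotype. Over the whole upstream region peaks covered 9.4 kb in WT, 4.4 kb in mdx and 4.8 kb in mdxTLR4-/-, at 23.4, 33.2 and 22.9 reads per kb. Within 2 kb of the start the step from mdx to mdxTLR4-/- was 0. Ccl2 had no H3K27ac peak within 5 kb in any list.

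Ccl7, another CCR2 ligand and the next gene, had no H3K27me3 peak in any list and an H3K27ac peak in mdxTLR4-/- alone. That peak ran from -711 to 2088 around the start with 8 reads (95% interval 3.45 to 15.8), where the smallest peak of its list had 5. Ccl12, also a CCR2 ligand, had an H3K27ac peak over the start in each list, with 49, 52 and 47 reads for WT, mdx and mdxTLR4-/-, the most at any member. H3K27me3 began close by, 1.4 kb to the right of this peak in WT, 0.8 kb in mdx and 6 kb in mdxTLR4-/-, and reached into the Ccl12 window in mdx alone (7.94%).

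Ccl8, which in mice acts through CCR8, had 47.3% coverage in WT, 86.9% in mdx and 55.4% in mdxTLR4-/-. The peak that WT had over the start ran from -984 to 8815 (266 reads). In mdx the start itself was free, in a gap between a peak that ended at -785 (255 reads) and one that began at 216 (297 reads), and in mdxTLR4-/- the gap was wider, from -3185 to 216. The higher coverage in mdx thus came from its upstream peak of 24.1 reads per kb. WT also had a peak of 67 reads within that stretch, but outside the Ccl8 window. When only denser peaks were kept, the upstream peak of mdx was dropped. The difference from WT to mdx then turned to -15.8 points and that from mdx to mdxTLR4-/- from -31.5 points to 0. Within 2 kb of the start the difference from WT to mdx was 0.4 points.

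Ccl11, the eotaxin that acts on CCR3, was covered at 92.8%, 91.0% and 92.8%, with a domain over all 3 exons in every list (434, 511 and 351 reads). Ccl1, a CCR8 ligand, had 79.7%, 75.6% and 71.0%, but its annotated gene runs over 129034 bases because of a distant alternative start. Over the 3156-base principal transcript the coverage was 85.3%, 70% and 61.3% in that order, and its start lay under a peak in each list. The 102 kb region around it was split into 4, 9 and 8 peaks.

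The Ccl22 to Ccl17 cluster (chr8:94740590-94813036) holds the CCR4 ligands Ccl22 and Ccl17, which draw Th2 and regulatory T cells, around the membrane-bound chemokine Cx3cl1. Its 72.4 kb span was covered at 62.4%, 60.5% and 53.6% for WT, mdx and mdxTLR4-/-. With mdx and mdxTLR4-/- cut to the number of peaks in WT, which left WT whole, it was 62.4%, 47.5% and 32.3%. A cut by density, at 1.5 times the 1st percentile of each list, took peaks from WT too and gave 38.4%, 47.5% and 32.3%. WT then lay below mdx, so the order of the genotypes depended on the cut. The neighbouring Pllp was covered at 51.9%, 51.1% and 59.2%, while Ciapin1 on the other side had no H3K27me3 in any list and an H3K27ac peak in each. Ccl22 had 90.1% in WT, 65.2% in mdx and 81.8% in mdxTLR4-/-, a difference of -24.9 points from WT to mdx. That difference was 0 when peaks under 1.5 times the 1st percentile of density in their list were dropped. In WT a peak of 317 reads began at -789 and in mdxTLR4-/- one of 127 reads began at -2389, both across the start, whereas in mdx a peak of 351 reads began at 411, inside the gene. With that cut, and with equal numbers of peaks, the step from mdx to mdxTLR4-/- at Ccl22 turned from 16.6 to -51.2 points, since the mdxTLR4-/- peak over the start had 18.7 reads per kb.

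Cx3cl1, known as fractalkine and the ligand of CX3CR1, had 76.7%, 70.6% and 45%, a difference of -25.6 points from mdx to mdxTLR4-/-. It was -11 points with equal numbers of peaks or with the density cut and 0 within 2 kb of the start. One peak covered its start in all 3 genotypes, with 605, 850 and 848 reads. In mdxTLR4-/- this peak was the one that also reached back over the end of Ccl22. It ended at 4191 in WT and mdx and at 2391 in mdxTLR4-/-, and a second peak from 7592 onward, with 77 reads in WT and 59 in mdx, had no counterpart in mdxTLR4-/-. Ccl17 had no peak in WT and mdxTLR4-/- and 46.8% in mdx, from a single 4600-base peak of 109 reads between -6052 and -1453. None of its exons was under it. That peak had 23.7 reads per kb, under the median of its list (28.3), and Ccl17 was no longer among the higher members once the lists were cut to equal numbers.

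The most completely covered members were outside these clusters. The eotaxin genes Ccl26 and Ccl24 (chr5:135559448-135578049) were covered at 98.1% in each genotype and at 97.1%, 92.7% and 92.7%. Over Ccl26 the region was 1 peak of 73.2 kb in WT, 1 of 70.2 kb in mdx and 3 peaks in mdxTLR4-/-, the longest of 38.0 kb. Over Ccl24 it was 1 peak of 60.4 kb, 1 of 55 kb and 2 peaks, the longest of 44.0 kb. The Ccl26 domain reached the flanking gene Hip1, covered at 38%, 35.9% and 35.4%. The Ccl24 domain ended before Rhbdd2 on the other side, whose 36.5%, 10.3% and 17.4% came from separate peaks over its body and, in WT, also from the end of that domain upstream of it. Cxcl12 (chr6:117163535-117182367), the CXCR4 ligand through which bone marrow stroma retains blood cells, had 95.8%, 100% and 100%, in 5, 2 and 6 peaks over a 48.2 kb region. Cxcl14 (chr13:56287643-56301551), an epithelial chemokine, had 100%, 100% and 98.9%. Its 154 kb region was 3 peaks in WT and mdx, the longest of 135 kb and 141 kb, and 8 peaks in mdxTLR4-/-, the longest of 80.6 kb. The covered length hardly differed, at 148 kb, 152 kb and 145 kb, so that nearly the same length was called in more peaks. The mdxTLR4-/- list as a whole had 41 peaks over 100 kb, against 75 in WT and 72 in mdx.

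Read density in these domains followed the lists. Density was unscaled reads per kb of the bases under peaks in the list itself, a length that can differ between lists. Over the 17005 autosomal regions with a peak in all 3 lists, the median ratio was 1.22 for mdx over WT. For mdxTLR4-/- over mdx it was 0.79. Pooled over the 14 such regions at members, the ratio was 1.22 (95% counting interval 1.2 to 1.25) and 0.805 (0.791 to 0.82), which is 1.01 and 1.02 times the median of all regions. Cxcl14 with 7180, 9008 and 6959 reads stood at 1 and 1.03 times the median, and Ccl26 with 3854, 4498 and 3659 reads at 1 and 1.04. Relative to the median, the counting interval left out 1 for mdx over WT at Ccl24, 1.06 (1.02 to 1.1), and at the Ccl12 and Ccl8 region, 0.847 (0.738 to 0.974). In the latter region peaks covered 12.2 kb in WT with 333 reads and 19.6 kb in mdx with 552 reads. Its lower density in mdx thus went with more reads over a longer called length. For mdxTLR4-/- over mdx the interval left out 1 at the 12.8 kb Ccl11 region, 0.855 (0.745 to 0.982). These intervals leave out the spread between regions. Unscaled, Ccl24 stood at 1.29, inside the quartiles of all shared regions (1.12 to 1.33), and the Ccl12 and Ccl8 region at 1.03, below them. The Ccl11 region stood at 0.675, below quartiles of 0.716 to 0.868.

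**Figure D4:**
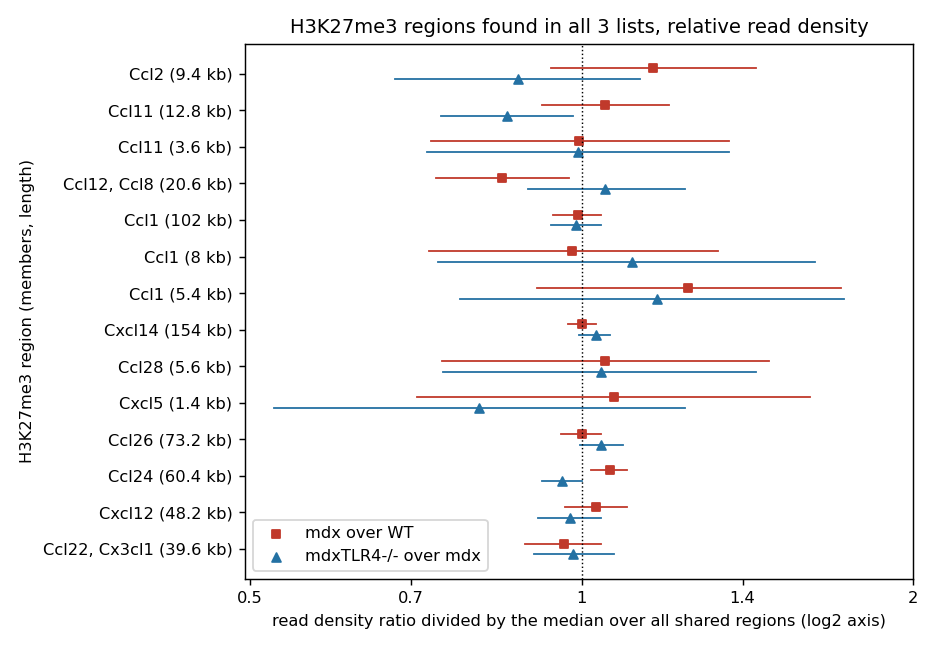
Ratio of H3K27me3 reads per kb (x axis, log2 scale) of mdx over WT and of mdxTLR4-/- over mdx, each divided by the median ratio over all 17005 shared regions, for the 14 regions at members that all 3 lists hold (y axis). Horizontal lines are 95% intervals of counting error from 1 merged list per genotype. Each density is taken over the bases under peaks in its own list. The long domains of Cxcl14, Ccl26 and Cxcl12 sit within 1.04 times the median on either side.

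The Ccl5 to Ccl4 cluster (chr11:83524778-83665683) lies further along the same chromosome than the Ccl2 to Ccl1 cluster. Its 141 kb span had no H3K27me3 peak in any list. It holds Ccl5, Ccl3 and Ccl4, inflammatory attractants of T cells and monocytes, and the CCR1 ligands Ccl9 and Ccl6, which myeloid cells make. It held 9 H3K27ac peaks with 126 reads over 17.8 kb in WT, 6 with 78 reads over 10.8 kb in mdx and 10 with 123 reads over 15 kb in mdxTLR4-/-. The whole H3K27ac lists held 274020, 191629 and 168487 reads in 15665, 12076 and 12493 peaks, in the same order. Reads per kb over all shared H3K27ac regions are another measure than these totals. Their median ratio was 0.857 for mdx over WT and 0.966 for mdxTLR4-/- over mdx. Of the flanking genes, Heatr9 had no peak of either mark and Wfdc17 had H3K27ac peaks of 7 reads in mdx and 9 in mdxTLR4-/-.

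**Figure D5:**
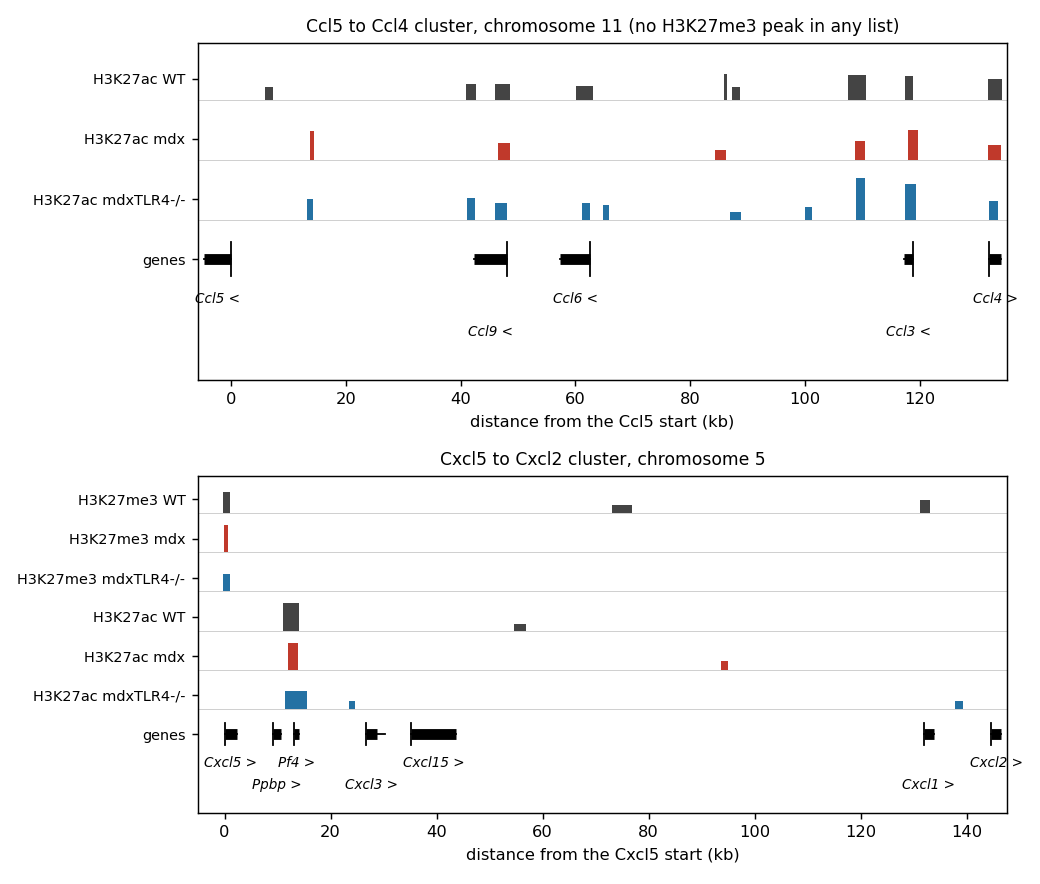
Peaks over the Ccl5 to Ccl4 cluster (top, H3K27ac only, x axis in kb from the Ccl5 start) and the Cxcl5 to Cxcl2 cluster (bottom, both marks, x axis in kb from the Cxcl5 start), drawn as in the map of the Ccl2 to Ccl1 cluster. The peak over the Ccl6 start in WT has no counterpart in mdx, and the peak shared by Ppbp and Pf4 is present in each list.

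Ccl6 was the 1 member with an H3K27ac peak in WT and none in mdx. In WT a peak of 16 reads (95% interval 9.15 to 26) covered the start, in mdx the nearest peak was 13.9 kb away, and in mdxTLR4-/- a peak of 9 reads began at 87 and another of 6 reads lay upstream. Ccl9 had 16, 14 and 13 reads and Ccl4 19, 13 and 12, with intervals that overlapped throughout. In both, the mdxTLR4-/- peak began just inside the gene, at 36 and at 17 bases from the start, on a grid of 200 bases. The difference over the start is therefore within the resolution of the peaks. That also holds for WT against mdxTLR4-/- at Ccl6, where the peak began at 87. Ccl3 had 13, 21 and 25 reads, again with overlapping intervals (6.92 to 22.2, 13 to 32.1 and 16.2 to 36.9). Ccl5 had no peak within 5 kb in any list, and the nearest lay 5.88 kb away in WT.

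The Cxcl5 to Cxcl2 cluster (chr5:90754360-90906938) holds the neutrophil attractants Cxcl5, Cxcl3, Cxcl15, Cxcl1 and Cxcl2 and the platelet chemokines Ppbp and Pf4. It was nearly free of H3K27me3, at 4.59%, 0.524% and 0.918% of its 153 kb. Its flank Rassf6 had 4.59%, 10.6% and 20.7%, and Mthfd2l on the other side 0% in each. Cxcl5 kept a short peak over its start in each list, 1400, 800 and 1400 bases long, with 59, 44 and 49 reads and 16.9%, 9.68% and 16.9% of the window. Cxcl1, a ligand of CXCR2, had 22.9% in WT, from an 1800-base peak of 48 reads that ran from -640 to 1159 over the promoter printed above and 3 of 4 exons, and no peak in mdx or mdxTLR4-/-. It was lost when only peaks of at least 2 kb were kept. The H3K27ac peak at the Pf4 start held 45, 26 and 41 reads, with overlapping intervals (32.8 to 60.2, 17 to 38.1 and 29.4 to 55.6), and Ppbp lay 1.88 kb, 2.88 kb and 2.28 kb from it. Cxcl3 had an H3K27ac peak in mdxTLR4-/- alone, of 5 reads and 2.1 kb upstream, as small as that list allows. Cxcl15 and Cxcl2 had no peak of either mark in any list by these rules.

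Cxcl9 and Cxcl10, interferon-induced ligands of CXCR3, are neighbours (chr5:92320347-92353889). Cxcl10 had an H3K27ac peak over its start in each list (10, 13 and 10 reads) and another 4.31 kb, 3.71 kb and 4.31 kb upstream (20, 16 and 12 reads). Cxcl9 had no H3K27ac peak and, in mdx alone, a 1400-base H3K27me3 peak of 35 reads inside the gene, for 11% coverage. That difference was 0 with peaks of at least 2 kb, with equal numbers of peaks, with the density cut and within 2 kb of the start. The flanking genes Sdad1 and Nup54 had no H3K27me3 in any list.

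Several differences near single members belonged as much to a neighbouring gene. The annotated Ccl25 start, 24.4 kb before that of its principal transcript, lies at the start of Elavl1, which encodes a widely expressed RNA-binding protein, and the H3K27ac peak there (10 reads in mdx and 13 in mdxTLR4-/-) covered both. With the principal transcript, Ccl25, the CCR9 ligand of thymus and gut, had no H3K27ac peak within 5 kb in any list. It then had 26.8% H3K27me3 coverage in WT, from a peak of 76 reads over the principal start, and none in mdx or mdxTLR4-/-. That peak, of 17.3 reads per kb, was dropped by the density cut. Cxcl16, a transmembrane ligand of CXCR6, shares its window with Zmynd15 and Med11. Its H3K27me3 coverage was 0% in WT, 26.5% in mdx and 40% in mdxTLR4-/-, all upstream, from peaks of 100 and 104 reads. With equal numbers of peaks or the density cut, the mdx list had no coverage here, and the step between mdx and mdxTLR4-/- was 40 points in place of 13.5. Within 2 kb of the start the difference between WT and mdx was 4.6 points. The Cxcl16 H3K27ac peak of mdxTLR4-/- held 9 reads, lay 0.184 kb from the start and covered the start of Zmynd15. In WT and mdx the nearest peaks lay 5.58 kb and 5.18 kb off, just outside the limit.

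The Ccl27a to Ccl21a cluster (chr4:41768467-42778993) holds copies of the skin chemokine Ccl27 and of the CCR7 ligands Ccl19 and Ccl21, which lead dendritic cells and naive T cells into lymph nodes. It was the cluster in which the mdxTLR4-/- list held far more H3K27me3, with 6, 14 and 43 peaks for WT, mdx and mdxTLR4-/-, or 4.77%, 6.47% and 15.4% of 1011 kb. Ccl27a stood at 0%, 0% and 18.6%, Ccl27b at 0%, 37.7% and 43.7%, and Ccl21a at 0%, 4.78% and 60.8%, with all 4 exons of Ccl21a under a peak in mdxTLR4-/-. The step from WT to mdxTLR4-/- at Ccl21a was 38.4 points with equal numbers of peaks, and within 2 kb of the start Ccl27b had a difference of 0. Ccl21b and Ccl19 had no peak in any list. The window of Ccl27a also holds Il11ra1 and that of Ccl27b Il11ra2. The flank Gm12394 had 0%, 4.45% and 18.9%, while Galt had 0% in each. Much of the sequence in the windows of this cluster's members is repeated, to an unequal extent. The share of 50-base words in a window that occur once in the 21 chromosomes was 48.8% for Ccl27a, 0.378% for Ccl21b, 0% for Ccl27b, 38.6% for Ccl19 and 47% for Ccl21a, against 92.2% to 100% for the other 34 members. Reads here cannot be placed on 1 copy with certainty. Tlr4 lies on the same chromosome, and each genotype carries a strain label of its own. The part of copy number, strain and read placement in these values was not tested.

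The remaining single genes had little of either mark. Ccl28, a mucosal ligand of CCR10, had 10.9%, 10.9% and 12.6% H3K27me3 coverage, inside the gene in WT and mdxTLR4-/- and partly upstream in mdx, and no H3K27ac peak within 5 kb of the start. In all, 9 of the 39 members had no peak of either mark in any list by these rules. They were Ccl20, the CCR6 ligand of mucosal tissue, Xcl1, which attracts cross-presenting dendritic cells, Cxcl13, which draws B cells into follicles, Cxcl17, and the cluster members Ccl21b, Ccl19, Cxcl15, Cxcl2 and Ccl5.

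Of 22 autosomal chemokine receptor genes, 6, 6 and 5 were covered over at least 50% for WT, mdx and mdxTLR4-/-, beside 17.5%, 17.1% and 15.6% of all genes. Ccr4, the receptor of Ccl17 and Ccl22, had 81.6%, 64.1% and 68.9%. Ccr7, the receptor of Ccl19 and Ccl21, had 87.7%, 72.3% and 61.6%, and Ccr10, the receptor of Ccl27 and Ccl28, had 69.2%, 52.6% and 71.5%, with an H3K27ac peak of 16 reads in mdx alone. Ccr8, the receptor of Ccl1, had 54.5%, 59.1% and 26%. The scavenger receptors Ackr1 and Ackr3 had 61.0%, 73.1% and 70.1%, and 87.1%, 95.7% and 76.4%. H3K27ac peaks within 5 kb of the start were found at 5, 6 and 4 receptors, beside 32.9%, 28.3% and 30.4% of all genes. The same 4 receptors had one in every list. The others were Ccr3 in WT alone (8 reads) and, in mdx alone, Ccr2 (17 reads) and Ccr10. From WT to mdx, 4 receptors were lower by at least 10 points and 1 higher, beside 5.79% and 5.04% of all genes. From mdx to mdxTLR4-/-, 3 were lower and 2 higher, beside 8.03% and 2.6%, and from WT to mdxTLR4-/-, 5 were lower and 0 higher, beside 8.82% and 2.67%.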

How the data were processed

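Chromatin of BMDM was digested with micrococcal nuclease and precipitated for H3K27me3 or H3K27ac. Per the labels, the authors used CASAVA 1.8, cutadapt 1.15, Bowtie2 2.3.4 and SICER 2.0 with the mm10 build. They merged replicates and deposited 1 peak list per mark and genotype (windows of 200 bp, gaps of 600 bp, FDR of 0.01). The deposited value is a count of ChIP reads per peak, not scaled for depth or length and without subtraction of input. The 6 lists were read with Python 3.11.15, NumPy 2.4.6, pandas 2.3.3 and SciPy 1.17.1. Coverage, overlaps, the counting intervals of ratios (exact Clopper-Pearson, 95%) and word counts (numba 0.67.0) were tested on simulated data. The counting intervals of single peaks (exact Poisson, 95%) were not. Named in full were members with coverage of at least 50% in any genotype, a difference of at least 10 points or an H3K27ac peak in some lists, the nearest gene on each side of a cluster, and receptors with coverage of at least 50%. Values named for other members, other receptors and markers were chosen after they were seen. The members, lists and rules were chosen with earlier results of these data known. GENCODE vM21 and RefSeq sequences of GRCm38.p6, the same build as mm10, gave positions and promoters. Left out were the X and Y chromosomes and the input libraries, for which no peak list was used.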

Additional observations from a re-analysis of the deposited data

How the results depend on the processing

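No paired analysis was possible because the lists merge the replicates, and for the same reason no replicate could be left out. Of 150 recomputed member counts 129 stayed within 1.5 times, of 130 member differences 96 held and of 84 cluster spans 71 held. With the same number of H3K27me3 peaks per list, which took peaks from mdx and mdxTLR4-/- and none from WT, 7 members were lower and 1 higher from WT to mdx. From mdx to mdxTLR4-/- 3 were lower, and from WT to mdxTLR4-/- 8 were lower. That setting and peaks of at least 1.5 times the 1st percentile of density (1 higher, 3 lower) turned Ccl8, mdx minus WT, to -15.8 points and Ccl22, mdxTLR4-/- minus mdx, to -51.2 points, and gave the Ccl22 to Ccl17 span 47.5% in mdx and 32.3% in mdxTLR4-/-. The density setting gave that span 38.4% in WT.

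Within 2 kb of the start, 1 member was higher from WT to mdx and 2 lower from mdx to mdxTLR4-/-. With coverage of 20% and differences of 20 points, 3 were lower and 1 higher from mdx to mdxTLR4-/-, and 1 (Cxcl16) had both marks. Without the Ccl21, Ccl27 and Ccl19 genes, 2 were higher from mdx and 1 from WT to mdxTLR4-/-. With 200 bp of H3K27ac peak in the upstream 5 kb, WT had 5 members, 2 were gained in mdx and 1 (Ccl9) was lost in mdxTLR4-/- against either. With at least 10 reads, 0 were gained from mdx to mdxTLR4-/-, and 1 gained and 1 lost from WT. With the principal transcript, an alternative chosen after seeing the data, 0 were gained in mdx. Joining members over 2 Mb gave 13.2% for the Cxcl5 to Cxcl2 span in mdx, 11.6% for Cxcl9 to Cxcl10 in WT, and 32.1%, 31.2% and 27.8% for both chromosome 11 clusters.

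Pooled density ratios depended on scaling. Divided by the median of shared regions they were 1.01, 1.02 and 1.03 (mdx over WT, mdxTLR4-/- over mdx, mdxTLR4-/- over WT), and scaled to reads in peaks 1, 1.12 and 1.12. For mdx over WT, the same scalings turned Ccl1 (102 kb) to 0.992 and 0.987, Ccl26 to 1 and 0.994, Ccl22 and Cx3cl1 to 0.963 and 0.958, and the second alone Cxcl14 to 0.996. For mdxTLR4-/- over mdx they turned Ccl12 and Ccl8 to 1.05 and 1.15, Cxcl14 to 1.03 and 1.12 and Ccl26 to 1.04 and 1.14, and the second alone Ccl1 to 1.08, Ccl24 to 1.05, Cxcl12 to 1.07 and Ccl22 and Cx3cl1 to 1.07. For mdxTLR4-/- over WT the second turned Ccl1 to 1.07 and Ccl22 and Cx3cl1 to 1.03. Beyond the scaling itself, the cause of these changes was not tested. H3K27ac peaks of 5 to 16 reads limit any statement on a single gained or lost peak.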
